A study of Mus musculus with 4 samples.

Results

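Synaptic vesicle and active zone genes encode the proteins with which a nerve terminal stores, docks, fuses and recovers its vesicles. A list of 47 such genes was taken by gene symbol from the 55421 genes counted in primary cultures of mouse prefrontal cortex (PFC). No condition was set on their expression, and all 47 were found and passed the filter on low counts. This list, and the lists set beside it below, were chosen with earlier results of these data known. The cultures came from wild-type C57BL/6 mice at postnatal day 0 (P0). Dissociated PFC cells were grown for 10 days in neurobasal medium with B27 and glutaMAX, either with fibroblast growth factor 2 (FGF2) at 5 ng/mL (2 libraries) or with no FGF2 (2 libraries). FGF2 is a secreted growth factor that is often added to neural cultures, and the comparison asks how the RNA of the cultures differed when it was present. The cells were a mixture that was not sorted, so a level is the average over neurons and glia together. Gene counts per library were between 9166432 and 10799886, and 3 counts correspond to between 0.278 and 0.327 CPM, the unit of level used here, in which each count is scaled to a common library total.

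Release of transmitter begins when vesicles, loaded with transmitter and carrying synaptophysins, SV2 proteins, synapsins and Rab3, are brought to the active zone, a scaffold built from Bassoon, Piccolo, RIM, ELKS and liprins. Munc13 proteins prime the vesicle there, and the vesicle SNARE (synaptobrevin) zips together with the membrane SNAREs (syntaxin and SNAP-25) when synaptotagmin senses calcium. Dynamin, amphiphysin, endophilin and synaptojanin then recover the vesicle membrane. Most of these genes are made chiefly by neurons, and their RNAs rise as cortical neurons mature and form synapses.

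With FGF2, 41 of the 47 members were lower and 2 were higher by the edgeR quasi-likelihood test (adjusted p below 0.05), and 4 did not pass the test. Among all 17144 genes tested, 40.5% were called, 19.9% as lower and 20.7% as higher. The median log2 fold change (FGF2 against no FGF2) was -0.53 over the members, with an interquartile range from -0.62 to -0.37, and -0.001 over all genes. Thus the members lay mostly on one side of a comparison that was balanced over the whole table. That balance depends in part on the scaling between libraries. With scaling to total counts only, 3604 genes were lower and 3356 higher, and 42 members were lower and 2 higher. In CPM, both FGF2 libraries were below both libraries without FGF2 for 43 members (33.4% of all genes) and above them for 3 members (33.6% of all genes), and for 1 member the groups overlapped. DESeq2 called 39 members lower and 2 higher, against 10.8% and 11.6% of the genes it tested.

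The members together took 0.691% and 0.688% of the gene counts with FGF2 and 0.900% and 0.909% without FGF2. Their share was thus 0.689% ± 0.0019 (SD, n = 2) with FGF2 and 0.905% ± 0.0060 (SD, n = 2) without, a ratio of 0.762. In the plot of all members by library, the points of the FGF2 libraries lie to the left of those without FGF2 in each role, apart from a few genes.

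**Figure D1:**
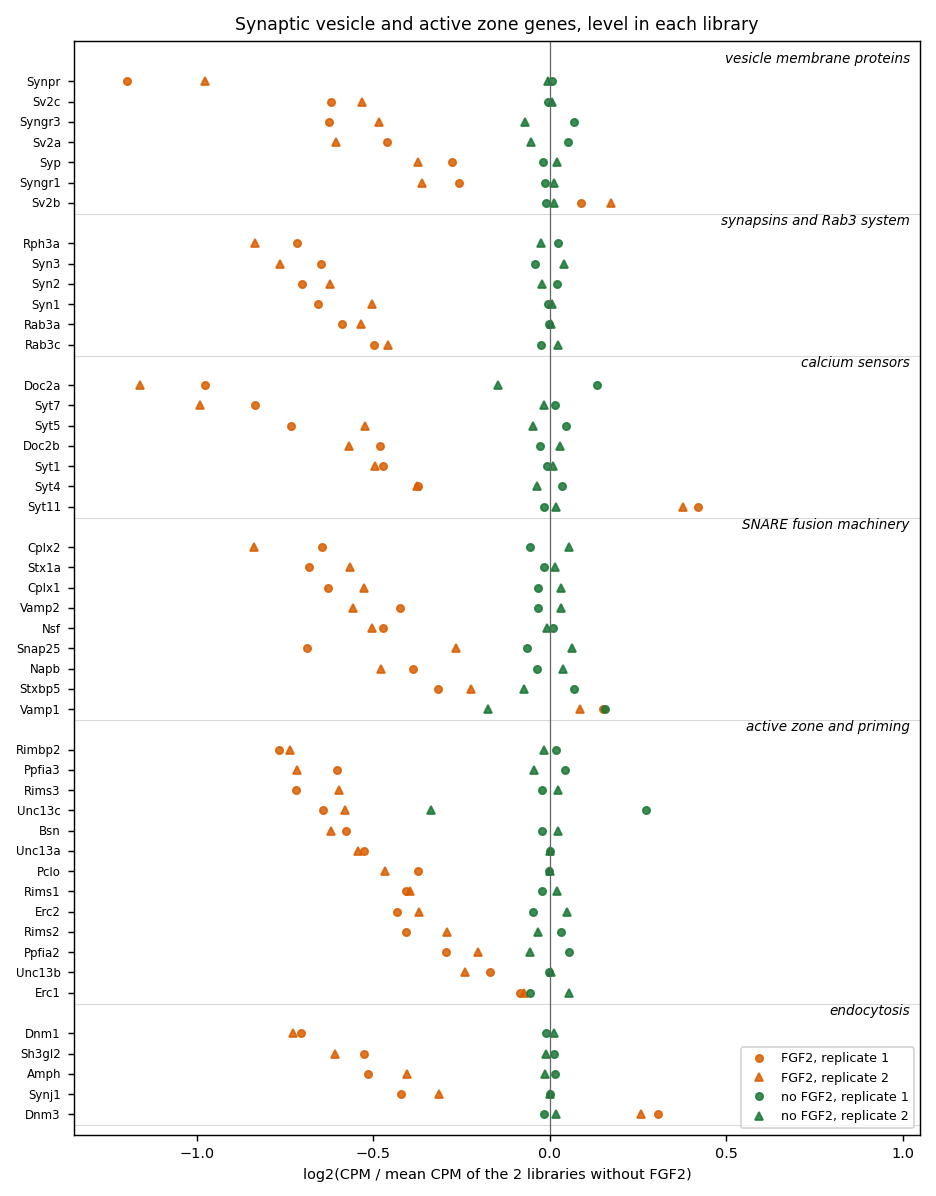
Level of the 47 members in each of the 4 libraries, as log2 of the CPM over the mean CPM of the 2 libraries without FGF2 (horizontal axis), with genes grouped by role (vertical axis); orange marks FGF2, green no FGF2, circles replicate 1 and triangles replicate 2. The FGF2 points of 43 members lie left of both green points, those of Syt11, Dnm3 and Sv2b lie right of them, and those of Vamp1 overlap them.

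Markers of the cell types in the cultures moved as well. Of 15 pan-neuronal markers, 13 were lower and 1 was higher with FGF2 (median log2 fold change -0.47), and their summed level was 5707 and 5724 CPM with FGF2 and 8160 and 8132 CPM without. Of 12 excitatory neuron (EN) markers 7 were lower (median -0.52), and of 11 inhibitory neuron (IN) markers 10 were lower (median -0.72). Defining neuronal markers were all detected, among them Tubb3, Map2 and Rbfox3, so the cultures held neurons under both conditions. Of 10 astrocyte markers 8 were higher and 1, Fgfr3, was lower (log2 fold change -0.44), with a median of 0.41. Their summed level was 12628 to 12753 CPM with FGF2 and 7742 to 7793 CPM without. Of that sum, Gfap alone had a mean of 5793 CPM with FGF2 and 2776 CPM without. All 10 oligodendrocyte lineage markers that could be tested were higher (median 1.61). Microglia markers were low, between 8.09 and 19.4 CPM in sum, 3 of the 4 tested were higher, and of 3 tested endothelial markers 1 was higher (Flt1, at 4.70 CPM with FGF2 and 0.701 CPM without) and 1 was lower (Kdr), with Cldn5 at 0 in every library. Of 7 progenitor markers 3 were higher and 1 was lower, of 6 proliferation genes 5 were lower, and of 7 tested fibroblast and mural markers 2 were higher and 2 were lower. The summed level of the members had a ratio of 0.771 between FGF2 and no FGF2 in CPM, and that of the pan-neuronal markers a ratio of 0.702. The sum of the members includes Syt11, which was higher with FGF2 (857 CPM, and 650 CPM without). By median log2 fold change the order was the other way, at -0.53 for the members and -0.47 for the pan-neuronal markers. In such bulk samples, fewer neurons and less RNA of these genes in each neuron cannot be told apart, and the part of the marker shift in the values of the members was not tested.

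**Figure D2:**
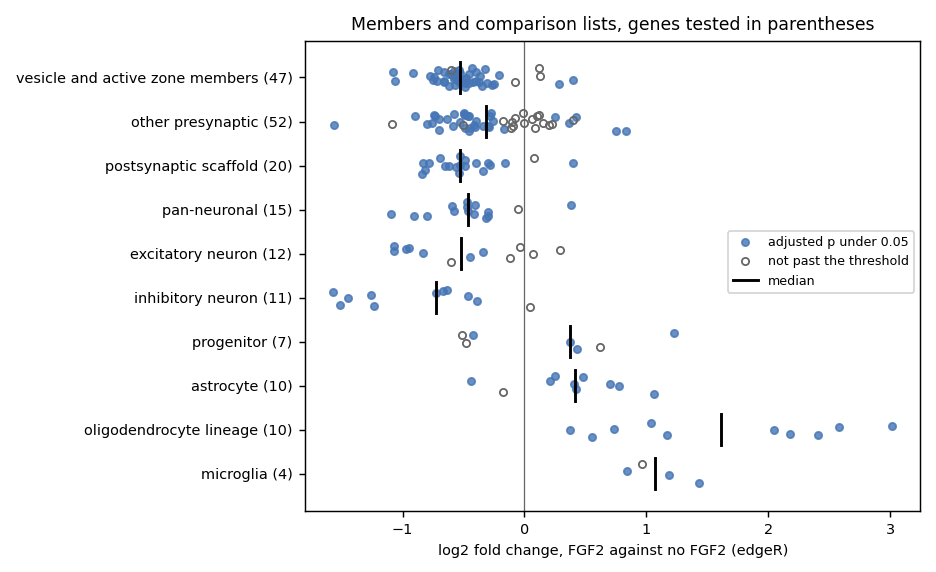
The log2 fold change of FGF2 against no FGF2 (horizontal axis, edgeR) for each tested gene of the members and of 9 comparison lists (vertical axis, number tested in parentheses); filled points passed the test at an adjusted p below 0.05, open points did not, and the black bar is the median of the list. Medians of the members (-0.53), postsynaptic scaffold genes (-0.53) and pan-neuronal markers (-0.47) lie left of 0, and those of astrocyte (0.41) and oligodendrocyte lineage markers (1.61) lie right of it.

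Of the 7 vesicle membrane proteins, 6 were lower with FGF2 (median log2 fold change -0.53). Synpr (ENSMUSG00000056296, chr14:13284780-13616340 of mm10), which encodes synaptoporin, a relative of synaptophysin, had the most negative log2 fold change of all members, ahead of Doc2a by less than the error. It was at 60.6 and 70.7 CPM with FGF2 and at 139.9 and 138.6 CPM without. Its mean level was 2.12-fold higher without FGF2, with no overlap between the groups (log2 fold change -1.08, SE 0.067, adjusted p = 3.3e-56). Syp (chrX:7638471-7653256), the gene of synaptophysin itself and the vesicle membrane gene with the highest level per kb of exon, was at 272 and 254 CPM with FGF2 and at 325 and 334 CPM without (log2 fold change -0.325, SE 0.043, adjusted p = 8.5e-13). The synaptogyrins, which are also relatives of synaptophysin, fell by 0.31 (Syngr1) and 0.55 (Syngr3) on the log2 scale. In the SV2 family, which are transporter-like glycoproteins of the vesicle, Sv2a fell by 0.53 and Sv2c fell by 0.57 on the log2 scale. Sv2b (chr7:75114894-75309262) was the exception in this role, at 60.9 and 64.7 CPM with FGF2 and at 56.9 and 57.8 CPM without. Its FGF2 libraries were both higher, but the difference did not pass the test (log2 fold change 0.13, SE 0.082, adjusted p = 0.20).

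All 6 genes of the synapsins and the Rab3 system were lower, with the most negative median of the 6 roles (-0.62). Rab3a (chr8:70754679-70758677), the vesicle-bound GTPase with the highest level per kb in this role, was at 107 and 111 CPM with FGF2 and at 160.0 and 160.5 CPM without (log2 fold change -0.56, SE 0.059, adjusted p = 3e-20). Its relative Rab3c fell by 0.48 on the log2 scale. Rph3a (ENSMUSG00000029608, chr5:120940499-121010092) encodes rabphilin, which binds Rab3 on the vesicle. It was at 69.3 and 63.9 CPM with FGF2 and at 116 and 112 CPM without, and the groups were well apart (log2 fold change -0.78, SE 0.070, adjusted p = 6e-27). The 3 synapsins, which tether vesicles to each other and to actin, fell together by 0.58 (Syn1), 0.66 (Syn2) and 0.71 (Syn3) on the log2 scale.

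Each synapsin gene contains a gene of a tissue inhibitor of metalloproteinases on the opposite strand, and the nested genes differed in direction. Timp1, within Syn1 with no shared exon bases, had 52 and 58 counts with FGF2 and 15 and 18 counts without (log2 fold change 1.90). Timp4 and Syn2 share 90 exon bases, and Timp4 was lower with FGF2 (log2 fold change -0.91). Timp3 shares 1733 exon bases with Syn3, which is 14.1% of the exon length of Syn3, and was higher with FGF2 (log2 fold change 0.32). The counts kept the strands apart for most genes: of 693 genes covered to at least 98% by a gene on the same strand 4 had any count, against 164 of 477 genes covered by a gene on the opposite strand.

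Because the members moved largely together, their promoters were compared with those of other genes in the 300 bases from 250 before to 50 after each RefSeq start (GRCm38.p6, the same assembly as mm10), which were given for 37 of the 47 members and for 27025 genes in all. The members without an entry were Doc2a, Doc2b, Syt4, Syt5, Syt7, Snap25, Syn3, Rims2, Vamp2 and Syngr3. RE1 is the element bound by the repressor REST, which keeps neuronal genes silent in other cell types. An RE1-like stretch was taken as CAGCACC, 2 bases of any kind and GGACAGC, on either strand, with at most 2 mismatches in the 14 fixed bases. It was found in 2 members (5.41%), Syn1 and Rph3a, and in 244 of all genes (0.903%). Both stretches are printed here, 5′ to 3′ along the strand of the gene, since they are the only members with a match, and capitals mark the RE1-like bases. The Syn1 stretch lies more than 150 bases before the start at chrX:20921069-20921168 (minus strand), outside any gene of the GENCODE M21 annotation, with 2 mismatches on the strand of the gene.
Syn1: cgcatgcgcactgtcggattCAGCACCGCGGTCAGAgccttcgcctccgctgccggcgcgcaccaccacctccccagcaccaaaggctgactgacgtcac
The Rph3a stretch lies from 133 to 34 bases before one of its 3 RefSeq starts, at chr5:121009572-121009671 (minus strand), between exons of the longer Rph3a transcripts, with 1 mismatch on the opposite strand.
Rph3a: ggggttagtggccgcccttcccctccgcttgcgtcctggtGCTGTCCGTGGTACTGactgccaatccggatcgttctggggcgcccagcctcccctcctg
The sequence GGGCGG, a GC box, was present on either strand in 29 of the 37 members (78.4%) and in 38.2% of all genes. TATAAA was present in 1 member, Sv2b (2.70%), and in 15.7% of all genes, and TGACG, the core of a cAMP response element, in 24.3% and 23.0%. The promoters of the members held a median of 20 CpG in 300 bases, against 8 over all genes, and a median of 63.0% against 53.3% GC. Some genes had more than 1 window (47 windows for the members and 32851 for all genes). For these the highest CpG and GC values were used, and a motif counted if any window held it. The 27025 genes were taken whether expressed or not, whereas all members passed the filter on low counts. Whether the members differ in these letters from other expressed genes was not tested. These are descriptions of the letters in the windows, and binding was not measured.

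The RNA of Rest itself was 52.3 CPM with FGF2 and 32.9 CPM without (log2 fold change 0.67, adjusted p = 5.2e-11). Of 5 genes of the REST repressor complex 3 were higher and none was lower (20.7% of all genes were higher), with Rcor2 at a log2 fold change of 0.55 and Sin3a at 0.44. Whether these levels had any part in the values of the members was not tested.

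Among the 7 synaptotagmins and Doc2 proteins, 6 were lower and 1 was higher with FGF2 (median -0.53). Syt1, the calcium sensor of fast release, was at 336 and 330 CPM with FGF2 and at 463 and 468 CPM without (log2 fold change -0.48, SE 0.040, adjusted p = 1.6e-32). Syt7 (ENSMUSG00000024743, chr19:10389090-10453180), a sensor of high calcium affinity that acts in slower release and vesicle replenishment, fell further. It was at 63.5 and 56.9 CPM with FGF2 and at 114 and 112 CPM without, so its mean level was 1.88-fold higher without FGF2 (log2 fold change -0.91, SE 0.072, adjusted p = 3.7e-35). Doc2a (ENSMUSG00000052301, chr7:126847416-126852705), a soluble calcium-binding protein of spontaneous and asynchronous release, was low in every library, at 4.63 and 4.07 CPM with FGF2 and at 9.99 and 8.22 CPM without. It fell by 1.07 on the log2 scale, with a wide error (SE 0.24, adjusted p = 3.9e-05), and 39.4% of its exon length is shared with Ino80e on the opposite strand. Doc2b, Syt4 and Syt5 fell by 0.53, 0.37 and 0.62 on the log2 scale.

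Syt11 (ENSMUSG00000068923, chr3:88744700-88775164) rose, whereas the other synaptotagmins of the list fell. Synaptotagmin-11 does not bind calcium and acts in membrane traffic. Its RNA was at 869 and 844 CPM with FGF2 and at 643 and 658 CPM without, 31.7% higher and with no overlap (log2 fold change 0.40, SE 0.035, adjusted p = 9.3e-29). Per kb of exon, Syt11 was at 165 CPM with FGF2 and 125 CPM without, and Vamp2 at 137 and 192.5 CPM, so that the order of these 2 members with the highest levels per kb was opposite in the groups. Syt11 shares repeats of at least 100 bases and 95% identity with many transcripts, the longest a stretch of 283 bases with 99.6% identity to 1500004A13Rik, and a stretch of 164 bases with 95.1% identity to Pclo, another member. Reads of low mapping quality were removed before counting, and how many fell in such stretches was not tested.

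Of the 9 genes of the SNARE fusion machinery, 8 were lower (median -0.49). Vamp2 (chr11:69088490-69092384), the main vesicle SNARE, was at 546 and 498 CPM with FGF2 and at 716 and 750 CPM without (log2 fold change -0.49, SE 0.036, adjusted p = 2.8e-40). Stx1a, the membrane SNARE syntaxin-1A, fell by 0.62 on the log2 scale. Snap25, the second membrane SNARE, was at 128 and 172 CPM with FGF2 and at 197 and 215 CPM without. Both FGF2 libraries were below the other group but lay far from each other, and its log2 fold change of -0.46 (SE 0.12, adjusted p = 0.019) became -0.27 without FGF2 replicate 1 and -0.69 without FGF2 replicate 2, and had an adjusted p of 0.11 in DESeq2. Cplx2 (ENSMUSG00000025867, chr13:54371349-54383917) encodes complexin-2, which holds assembled SNAREs until calcium arrives. It was at 170 and 148 CPM with FGF2 and at 255 and 276 CPM without, the largest fall of this role (log2 fold change -0.74, SE 0.049, adjusted p = 5.2e-50). Its relative Cplx1 fell by 0.58, and Nsf and Napb, which take spent SNARE complexes apart, fell by 0.49 and 0.43 on the log2 scale. Stxbp5, or tomosyn, which competes with synaptobrevin and inhibits fusion, fell by 0.27 on the log2 scale. Vamp1 (chr6:125215551-125245964), the second synaptobrevin, was low and overlapped between the groups, at 18.4 and 17.6 CPM with FGF2 and at 18.5 and 14.7 CPM without (log2 fold change 0.12, SE 0.15, adjusted p = 0.56), and its fold change was -0.04 without no FGF2 replicate 2.

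**Figure D3:**
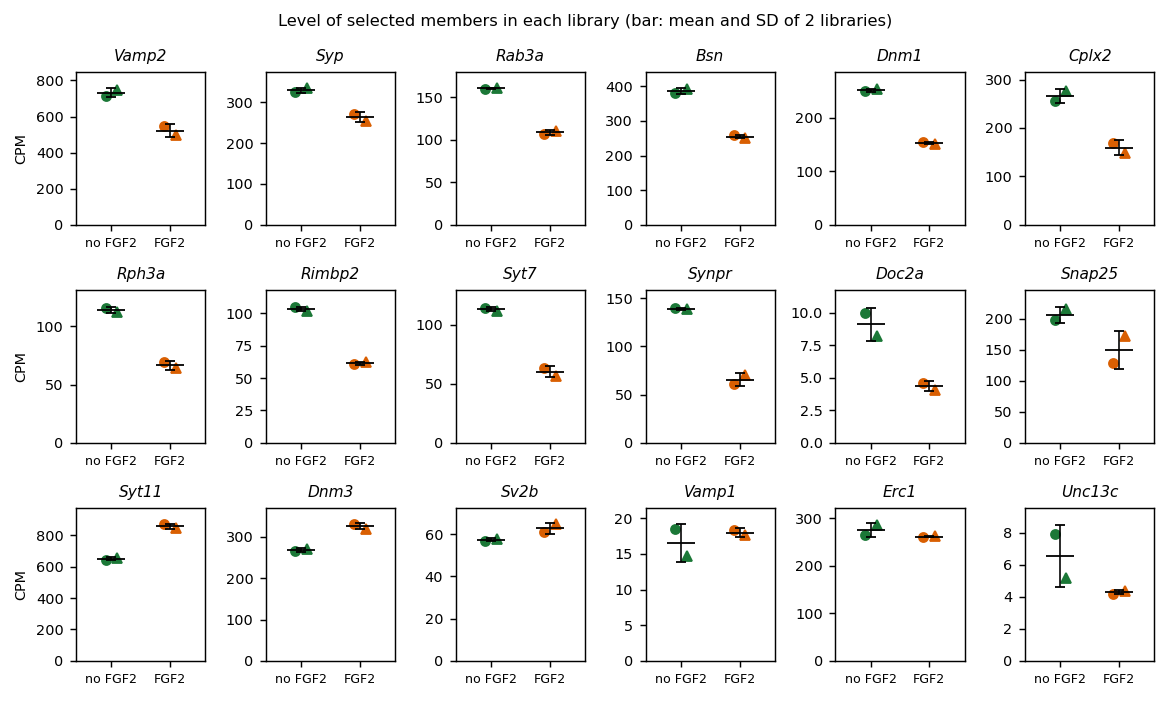
Level in CPM (vertical axes, each from 0) of 18 members in each library, without FGF2 (green) and with FGF2 (orange), with circles for replicate 1, triangles for replicate 2 and bars for the mean and SD of 2 libraries. Genes from Vamp2 to Snap25 are lower with FGF2 in both libraries, Syt11 and Dnm3 are higher in both, and Sv2b, Vamp1, Erc1 and Unc13c did not pass the test.

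At the active zone, 11 of 13 genes were lower (median -0.42) and none was higher. Bsn (chr9:108096022-108190384), which encodes the large scaffold Bassoon and had the highest level per kb in this role without FGF2, was at 258 and 251 CPM with FGF2 and at 380 and 392 CPM without (log2 fold change -0.60, SE 0.042, adjusted p = 2.2e-43). Its partner Pclo (Piccolo) fell by 0.42 on the log2 scale. Rimbp2 (ENSMUSG00000029420, chr5:128757791-128953486), whose protein links RIM to calcium channels, had the largest fall of this role. It was at 60.6 and 62.0 CPM with FGF2 and at 105 and 102 CPM without, with no overlap (log2 fold change -0.75, SE 0.073, adjusted p = 2.3e-23). The RIM genes, whose proteins gather calcium channels and vesicles, fell by 0.40 (Rims1), 0.35 (Rims2) and 0.66 (Rims3) on the log2 scale. The liprin genes fell by 0.66 (Ppfia3) and 0.25 (Ppfia2), and the adjusted p of Ppfia2 rose from 1.9e-04 to 0.055 without no FGF2 replicate 1. Ppfia2 shares 22.3% of its exon length with Acss3 on the opposite strand, which had between 19 and 41 counts.

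The priming factors and ELKS genes differed within their families. Unc13a, the main Munc13 of cortical synapses, fell by 0.54 on the log2 scale (adjusted p = 1.4e-29). Unc13b was at 105 and 100 CPM with FGF2 and at 118 and 119 CPM without, a small fall (log2 fold change -0.21, SE 0.063, adjusted p = 0.0042) whose adjusted p was 0.084 in DESeq2, 0.054 without FGF2 replicate 2 and 0.051 without no FGF2 replicate 2. Unc13c (chr9:73479422-73968966) was near the low end of all members, at 4.19 and 4.37 CPM with FGF2 and at 7.90 and 5.17 CPM without. The 2 libraries without FGF2 lay far apart, and the log2 fold change of -0.61 (SE 0.26, adjusted p = 0.051) was -0.28 without no FGF2 replicate 1 and -0.89, with an adjusted p of 0.022, without no FGF2 replicate 2. Erc2, the ELKS gene found chiefly in brain, fell by 0.40 on the log2 scale (adjusted p = 3.6e-12). Erc1 (chr6:119570796-119848167), its widely expressed relative, was at 260.3 and 262.5 CPM with FGF2 and at 266 and 287 CPM without (log2 fold change -0.08, SE 0.045, adjusted p = 0.14).

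Of the 5 endocytosis genes, 4 were lower and 1 was higher (median -0.46). Dnm1 (chr2:32308471-32353338), the neuronal dynamin that pinches vesicles from the membrane, was at 154 and 152 CPM with FGF2 and at 249.7 and 253.8 CPM without (log2 fold change -0.72, SE 0.050, adjusted p = 2.3e-45). Dnm3 (ENSMUSG00000040265, chr1:161982453-162478034), another dynamin, was at 331 and 320.5 CPM with FGF2 and at 265 and 271 CPM without. It was 21.5% higher with no overlap (log2 fold change 0.28, SE 0.043, adjusted p = 7.9e-10), opposite in direction to Dnm1. Sh3gl2 (endophilin-A1), Amph (amphiphysin) and Synj1, a phosphatase that strips the coat lipids of the recovered vesicle, fell by 0.57, 0.46 and 0.37 on the log2 scale.

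Since close relatives moved by different amounts, the share of each gene among the listed members of its family was computed within each library. Counts per kb of exon were used, and such a share does not depend on the scaling between libraries. Relatives outside the list were left out of every share and would change it. Among them were Dnm2 (31.7 CPM per kb with FGF2 and 41.6 without), Vamp3 (16.4 and 13.8), Ppfia1 (6.74 and 7.29) and Ppfia4 (4.58 and 6.83). In the dynamins of the list, Dnm3 made up 31.3% ± 0.26 (SD, n = 2) with FGF2 and 18.6% ± 0.059 (SD, n = 2) without. Among the 5 synaptotagmins, Syt11 made up 67.3% ± 0.55 with FGF2 and 51.9% ± 0.75 without. In both families the difference, of 12.7 and 15.4 percentage points, was many times the spread between libraries. Smaller differences in the same measure were seen for Erc1 in the ELKS family (53.8% ± 0.60 against 48.3% ± 0.18), Ppfia2 in the liprins (64.3% ± 2.3 against 57.6% ± 0.27), Sv2b in the SV2 family (15.9% ± 1.1 against 10.6% ± 0.46) and Unc13b in the Munc13 family (21.6% ± 0.48 against 18.0% ± 0.16). Of the 2 listed synaptobrevins, Vamp2 made up between 98.7% and 99.3% in every library. Vamp1, the other, made up 1.28% ± 0.042 with FGF2 and 0.842% ± 0.16 without, with no overlap. By contrast, the shares of Cplx1 and Cplx2 overlapped between the groups. With 2 libraries a group, the smallest p an exact two-sided permutation test allows is 0.333, and no other test was run on these shares.

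**Figure D4:**
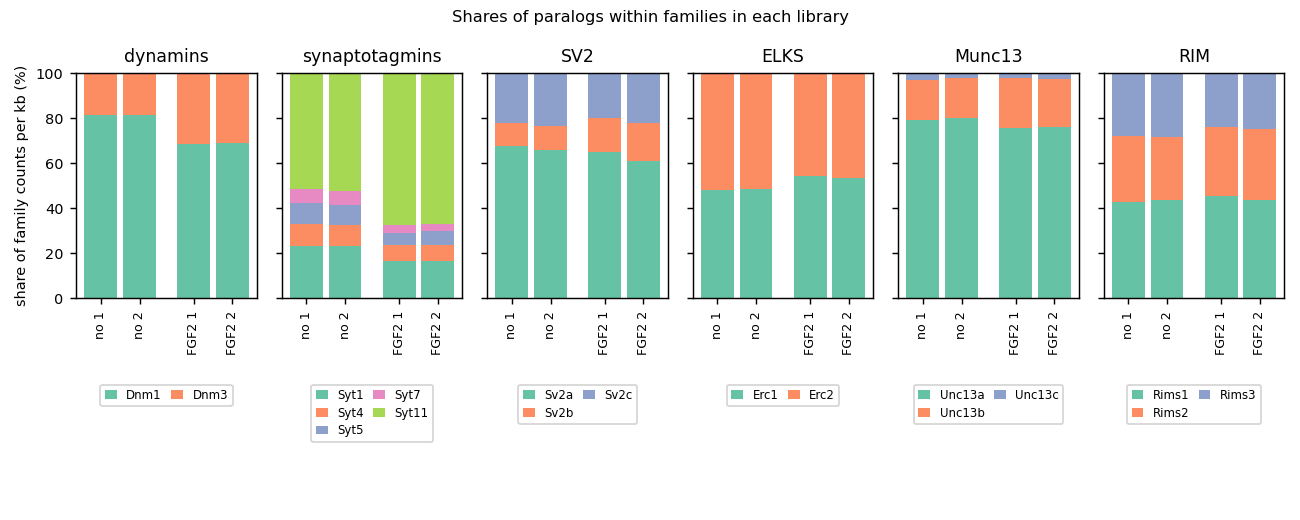
Share of each gene in the summed counts per kb of the listed members of its family (vertical axes, percent) in the 2 libraries without FGF2 ("no 1", "no 2") and the 2 with FGF2, for 6 families of the members. Relatives outside the list, such as Dnm2, were left out. The share of Dnm3 is 18.6% to 18.7% without FGF2 and 31.2% to 31.5% with it, and that of Syt11 is 51.3% to 52.4% without and 66.9% to 67.7% with it.

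Levels per kb of exon spanned a wide range. The length takes in all annotated exons of a gene, so the order between genes depends on the annotation. Without FGF2 the order from the top was Vamp2 (192.5 CPM per kb), Syt11 (125), Rab3a (72.0), Syn1 (70.9), Syp (63.2), Syt1 (55.9) and Cplx2 (53.9). Rab3a and Syn1 were neighbours with nearly the same level per kb in both groups (48.8 and 47.5 with FGF2). At the low end were Doc2a (3.25), Vamp1 (1.63) and Unc13c (0.743 CPM per kb). The low members carried the widest errors, with SE of 0.15 to 0.26 on the log2 scale, and of these 3 only Doc2a passed the test.

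Other presynaptic genes that are not members showed the same direction less uniformly. Of 56 such genes 52 could be tested, and 30 were lower and 5 were higher (median log2 fold change -0.32). Those lower included Snap91 (a clathrin adaptor of nerve terminals, log2 fold change -0.48), Rims4 (a short RIM protein, -0.90) and Otof (otoferlin, -1.56). The 5 higher genes were Syngr2 (0.84), Sh3gl3 (0.75), Snap23 (0.42), Cadps2 (0.37) and Vamp3 (0.25). Of these, Snap23 and Vamp3 encode SNAREs found in most cell types and Syngr2 a synaptogyrin found outside neurons. Vamp7 and Cplx4 were listed at 0 in every library. The listed Vamp7 identifier lies on an unplaced scaffold, GL456233.1, so its 0 may not be a level of expression.

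Of 6 transporters that fill vesicles 4 could be tested, and 2 were lower. Slc32a1, the vesicular transporter of GABA, fell by 1.26 on the log2 scale, from 54.2 to 22.6 CPM (adjusted p = 5.2e-32). Slc17a7 (VGLUT1), the main vesicular glutamate transporter of mature cortical neurons, was at 47.7 CPM with FGF2 and 45.4 CPM without (log2 fold change 0.07, adjusted p = 0.57), and Slc17a6 (VGLUT2) at 15.0 and 19.0 CPM (log2 fold change -0.34, adjusted p = 0.050, just below the threshold before rounding). Slc17a8 (VGLUT3) was low, at 3.85 and 4.08 CPM (log2 fold change -0.08, adjusted p = 0.87). On the other side of the synapse, 18 of 20 postsynaptic scaffold genes were lower and 1 was higher, with a median log2 fold change of -0.53 that was close to that of the members. Whether the lists differed from each other was not tested.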

How the data were processed

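Total RNA libraries of cultured P0 mouse PFC cells were sequenced by the authors as 150 bp read pairs. Per the submitters' processing notes, reads were mapped to mm10 with HISAT2 2.1.0 and counted per gene with HTSeq 0.11.2, and reads below a mapping quality of 20 were removed. The authors deposited raw counts per gene per library that were not normalized. Which annotation was used, and with which strand option, is not given in the sources used here, but the values show that the strands were kept apart. The files list 55421 genes, of which 55240 matched GENCODE M21, plus 5 tallies that name no gene, which were left out (43.2% to 45.9% of read pairs in no feature, 1.47% to 1.76% ambiguous).

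The test was the edgeR 4.0.16 quasi-likelihood test in R 4.3.3, with TMM scaling, the edgeR expression filter, robust estimation and Benjamini-Hochberg adjustment over 17144 genes, of which the members are rows. It replaced DESeq2, used in the study and kept as an alternative. CPM are after TMM scaling, and levels per kb divide by exon length in M21. Log2 fold changes come from the fit. The code was tested on simulated data. Alternatives were RLE and total count scaling, no expression filter, a mean of at least 10 counts, DESeq2 1.42.0, limma-voom (limma 3.58.1), a replicate block, lowess offsets (span 0.3) for GC content and length, both with and without the block, a threshold of 0.01 and each library left out in turn. Repeats were sought with BLAST 2.17.0 (at least 100 bases, 95% identity) and overlaps with bedtools 2.31.1.

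All members are named. Values of every library are given for the 6 largest falls, the rises, the highest level per kb of each role and the members with no call, and Syt1, Snap25 and Unc13b were added after their values were seen. The members and lists were chosen with earlier results of these data known. Replicates of a group differed by more than sampling noise (chi-square per degree of freedom 2.28 with FGF2 and 1.76 without) and were kept as 2 libraries. The study's methods name biological replicates only for human samples of GW11 and GW20 (gestation weeks) and call the rest technical, which read literally includes these cultures. Nothing says that the libraries came from separate cultures, so SD and p-values measure the spread between libraries, which may be technical only.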

Additional observations from a re-analysis of the deposited data

How the results depend on the processing

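Of the 47 members, 44 kept their direction and their side of the threshold under all 9 other settings that used the 4 libraries, and 43 when each library was left out in turn. DESeq2 called 3999 genes (2068 higher and 1931 lower) where edgeR called 6949, and the cause was not tested. Leaving out 1 library gave between 5213 and 6199 called genes, 40 to 41 members lower and 2 higher. The median log2 fold change of the members was -0.54 with total count scaling, -0.47 with GC and length offsets and also with those offsets and the replicate block, and -0.52 to -0.50 with 1 library left out. Vamp1 changed direction, to -0.042, without no FGF2 replicate 2, and was at 0.288 without no FGF2 replicate 1. Unc13c passed the test with total count scaling (adjusted p = 0.044) and with GC and length offsets (adjusted p = 0.049). The ratio of the members' share of gene counts, 0.762, was 0.759 to 0.766 with 1 library left out, and 0.771 on TMM-adjusted library sizes. Without length scaling the share of Sv2b differed by 6.81 and that of Dnm3 by 16.4 percentage points. The replicate numbers gave no pairing that the data showed (correlation of deviations 0.0056), and with the replicate block 6814 genes were called (3476 higher and 3338 lower), 41 members lower and 2 higher. The Doc2a and Unc13c values rest on few counts and had the widest errors of the members.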
